A study of Mus musculus with 18 samples.

Results

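The 10 genes described here encode the machinery of major histocompatibility complex (MHC) class I presentation: the light chain gene B2m, the heavy chain genes H2-D1 and H2-K1, the inducible proteasome subunit genes Psmb8, Psmb9 and Psmb10, the peptide transporter genes Tap1 and Tap2, the tapasin gene Tapbp and the peptidase gene Erap1. They were chosen by name and not by a cut on their values, though with earlier results of these data known. All 10 were among the 17941 gene symbols measured and among the 10104 with enough counts to be tested. Expression was measured by RNA sequencing of neutrophils sorted from the spleens of untreated female NZBWF1/J mice at 14, 20 and 26 weeks of age, with 6 libraries at each age. The labels call the libraries of an age biological replicates, and each is taken here to be 1 mouse, which they do not state, so p-values measure the spread between these libraries. These mice are the hybrid of the NZB and NZW strains and develop a lupus-like disease as they age, and the 3 ages stand for 3 stages of it. All 3 groups share strain, sex, organ and sort gate (live single cells, Ly6B+, CD11b+, Ly6G+ and intermediate for Ly6C), so age and stage of disease cannot be told apart, and no other strain serves as a healthy control.

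Class I molecules show short peptides from proteins made inside the cell to CD8 T cells. Peptides are cut by the proteasome, carried into the endoplasmic reticulum by the transporter that TAP1 and TAP2 form together, trimmed there by the aminopeptidase ERAP1, and loaded with the help of tapasin onto a heavy chain bound to beta-2 microglobulin. Interferons raise most of these genes in many cell types, and the subunits PSMB8, PSMB9 and PSMB10 then replace the constitutive catalytic subunits PSMB5, PSMB6 and PSMB7 in newly built proteasomes, which are called immunoproteasomes.

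Libraries held 5546624 to 17256379 counts, and CPM below is the usual count scaled to library size, here with TMM factors. Replicate 3 of 20 weeks stood apart: 58 genes with at least 100 counts in each of the other 17 libraries had 0 counts in it, against 0 to 1 such gene in any other library, and Tap1 was among its genes at 0. All 12 neutrophil markers were detected in every library. Their summed level was 48334 to 119440 CPM at 20 weeks, below the 136354 to 195751 CPM of 14 weeks and the 149726 to 292099 CPM of 26 weeks. Ngp and Ltf made up most of that sum. Of the 12, 1 was called higher and 9 lower at 20 than at 14 weeks, against 4.93% and 5.27% of all genes tested. At 26 weeks 5 were higher and 4 lower than at 14 weeks, against 5.45% and 5.54%. Against 20 weeks, 7 were higher and 1 lower, beside 8.03% and 7.98%. Markers of other cells moved too. The 8 B cell markers present (of 9 listed) summed to 49.5 to 199 CPM at 14 weeks, 244 to 1873 CPM at 20 weeks and 87.6 to 296 CPM at 26 weeks, mostly from Ighm. Of the 5 tested, Ighm and Cd22 were called higher at 20 than at 14 weeks, and Cd22 had medians of 3.06, 39.5 and 12.3 CPM at the 3 ages. Cd22 and Cd79a had no count in 1 library each, and Ms4a1 in 13 of 18. The 6 plasma cell markers present (of 7 listed) summed to 129 to 186, 349 to 2075 and 184 to 689 CPM. At 14 weeks that sum was mostly Xbp1, which had medians of 157, 334 and 216 CPM at the 3 ages, against 0.09, 270 and 19.9 CPM for Jchain. Sdc1 was at 0 in 15 libraries, and Mzb1 and Prdm1 in 11 each. The MHC class II genes and partners (7 of 7 present) summed to 5.15 to 123, 22.2 to 297 and 7.82 to 46.2 CPM. The 6 dendritic cell markers, mostly Itgax, summed to 0.17 to 17.6, 31.4 to 77.7 and 2.51 to 24.5 CPM, with Xcr1, Siglech and Flt3 at 0 in 16 libraries. The 10 monocyte and macrophage markers present (of 12) summed to 766 to 1003, 805 to 1288 and 758 to 1583 CPM. That sum holds genes that went opposite ways: of the 4 tested, 3 were higher and 1 lower at 20 than at 14 weeks, and 1 was higher and 3 lower at 26 than at 20 weeks. Csf1r averaged 190, 471 and 130 CPM and Cd68 126, 272 and 170 CPM at the 3 ages, and Ly6c2 averaged 533, 169 and 863 CPM. These 3 and Adgre1 were at 0 in no library, and C1qa was at 0 in 17. The 7 T cell markers present (of 8), mostly Cd3d, summed to 117 to 151, 49.99 to 102 and 94.5 to 382 CPM. NK cell markers (6 of 6) reached at most 13.2 CPM and erythroid markers (6 of 7) at most 251 CPM. All nucleated cells can carry class I molecules, and the part of these other cells in the levels of the 10 genes was not tested. In sorted cells measured in bulk, fewer cells of a type and less RNA per cell cannot be told apart. The 81 ribosomal protein genes, short transcripts used here to describe library composition, summed to 762 to 1032 CPM at 14 weeks, 644 to 1223 CPM at 20 weeks and 1095 to 3782 CPM at 26 weeks.

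Of all counts in a library, the 10 genes together took a median share of 0.861% in 14-week mice, 1.23% in 20-week mice and 0.993% in 26-week mice, and H2-D1 alone took 0.5001%, 0.733% and 0.435%. By mean log2 CPM over all libraries H2-D1 ranked 14 and B2m 48 among the 10104 genes. Per kilobase of exon, the order of the levels over 18 libraries was B2m (2595 ± 1275 CPM per kb, SD), H2-D1 (2173 ± 484), H2-K1 (401 ± 78.5), Tapbp (132 ± 54.3), Psmb8 (64.9 ± 18.1), Tap2 (43.4 ± 10.8), Psmb9 (42.2 ± 14.0), Psmb10 (13.4 ± 5.32), Tap1 (12.2 ± 4.72) and Erap1 (1.14 ± 0.77). In that order the ranges over libraries were separate only between H2-D1 and H2-K1 and between Psmb9 and Psmb10, and all other neighbours overlapped.

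**Figure D1:**
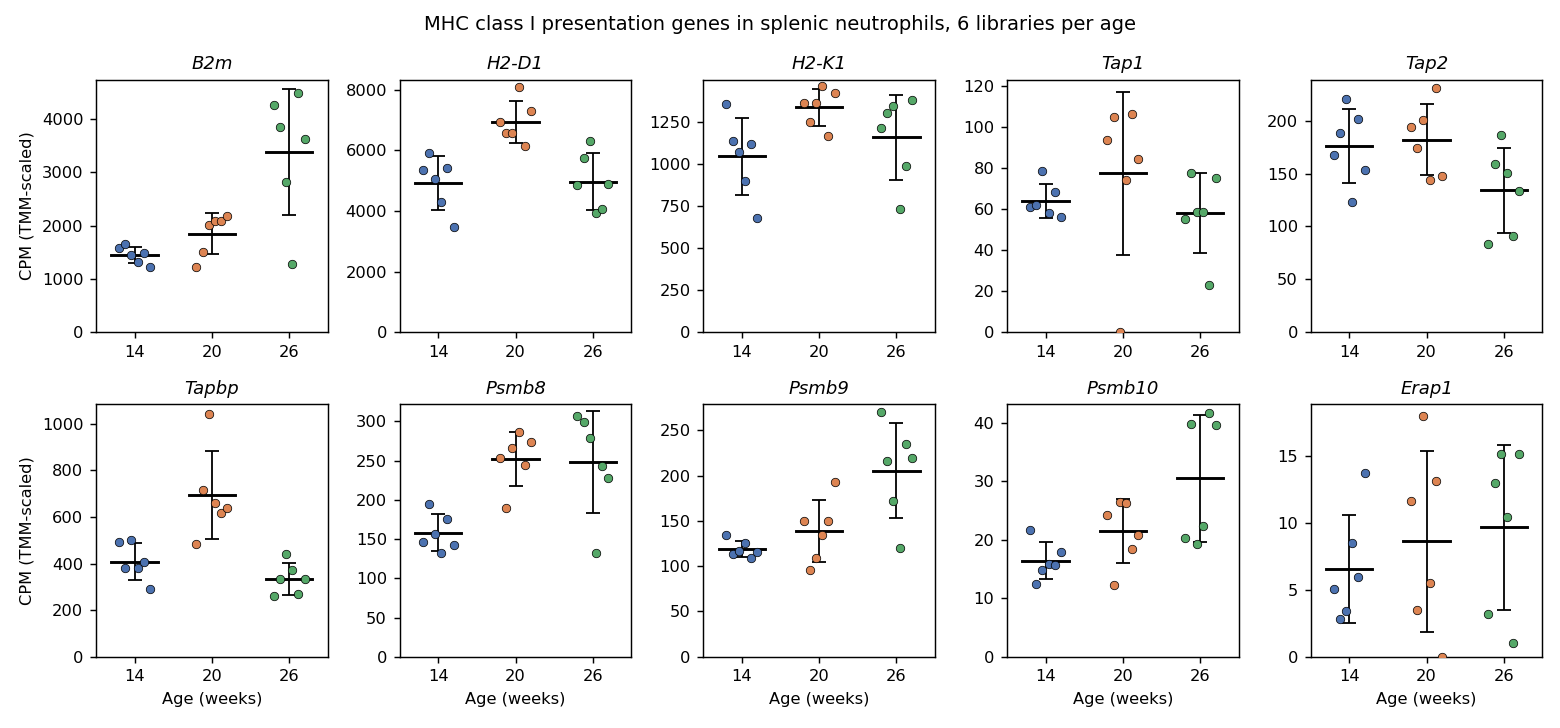
Levels of the 10 genes, in CPM after TMM scaling on the vertical axes (each panel from 0), at 14, 20 and 26 weeks on the horizontal axes. Each point is the library of 1 mouse, the thick line is the mean and the bar its SD (n = 6 per age). B2m averaged 3390 CPM at 26 weeks, Tapbp and H2-D1 were highest at 20 weeks, and 1 library of 20 weeks has 0 counts of Tap1.

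At 20 weeks, 3 of the 10 genes were higher than at 14 weeks and 0 were lower, with 0 lower at an unadjusted p under 0.05 as well. These were Tapbp, Psmb8 and H2-D1, at 1.41 to 1.70 times the level of 14 weeks by edgeR's quasi-likelihood test. Over all genes tested, 10.2% were called in either direction, 4.93% higher and 5.27% lower. Ranges that did not overlap between the ages were found for H2-D1, which was higher, against 2.97% of all genes higher and 3.93% lower. The median log2 change of the 10 genes was 0.37, against -0.02 over all genes tested. The same 3 genes were called under all 10 other settings of scaling, filter, test and covariates.

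At 26 weeks, 4 of the 10 genes were higher than at 14 weeks and 0 were lower, also by DESeq2 and limma-voom and with 0 lower at an unadjusted p under 0.05. These were B2m and all 3 inducible proteasome subunits, at 1.57 to 2.34 times the level of 14 weeks. Over all genes tested, 11.0% were called, 5.45% higher and 5.54% lower. None of the 10 genes had ranges that did not overlap, against 2.90% of all genes higher and 3.86% lower. The median log2 change of the 10 genes was 0.35, against 0.04 over all genes tested. A correction for gene length ended all 4 calls, as described below.

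Between the later ages the genes parted. At 26 weeks, B2m and Psmb9 were higher than at 20 weeks, and Tapbp and H2-D1 were lower, so 2 of 10 genes were called in each direction. With the correction for gene length, 0 were higher and 3 lower, since B2m (0.13, adjusted p = 0.742) and Psmb9 (0.32, 0.367) were no longer called and Tap2 was. Over all genes tested, 16.0% were called, 8.03% higher and 7.98% lower. Ranges that did not overlap were found for Tapbp, which was lower, against 3.69% of all genes higher and 2.27% lower. The median log2 change of the 10 genes was -0.12, against 0.05 over all genes tested. A test of any change over the 3 ages called 5 of the 10 genes, against 23% of all genes tested. Those were Tapbp (adjusted p = 0.000979), B2m (0.0014), Psmb9 (0.00823), Psmb8 (0.0115) and H2-D1 (0.017). Psmb10 (0.054), Tap2 (0.197), H2-K1 (0.256), Erap1 (0.873) and Tap1 (0.883) were not called. Psmb10 passed without replicate 1 of 14 weeks, replicate 2 or 3 of 20 weeks or replicate 1, 3 or 4 of 26 weeks (0.0293 to 0.0482), and H2-D1 did not pass without replicate 4 of 20 weeks (0.0527).

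**Figure D2:**
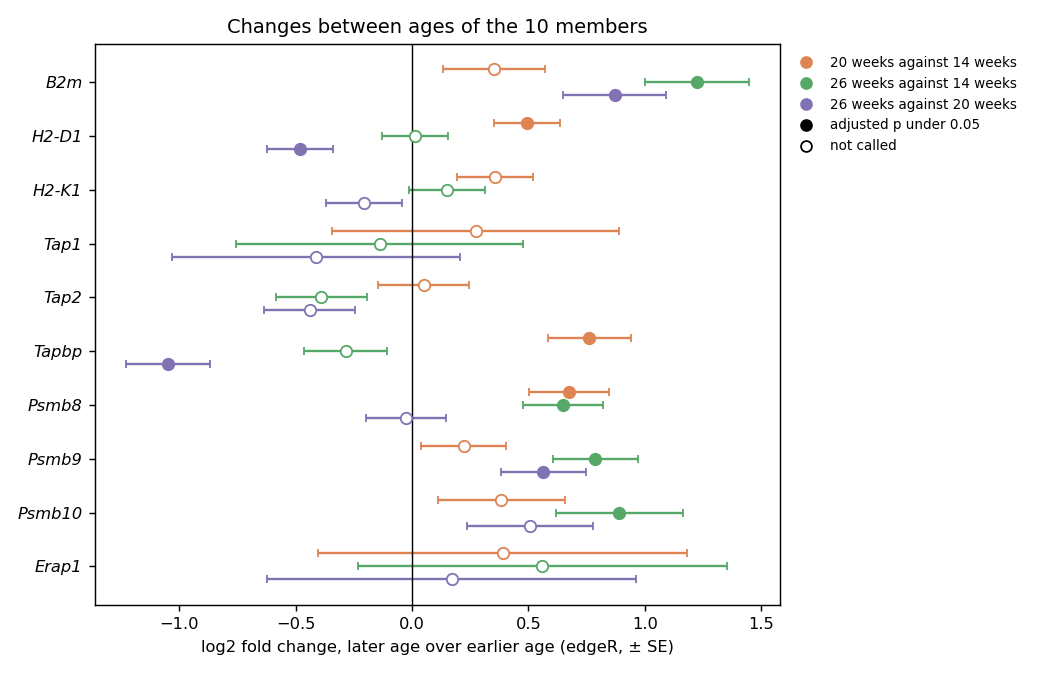
Log2 fold changes of the 10 genes from edgeR with their SE, later age over earlier age, on the horizontal axis, with 1 row per gene and 1 colour per comparison (n = 6 libraries per age). Filled points have an adjusted p under 0.05 over 10104 genes. The called points are Tapbp, Psmb8 and H2-D1 for 20 against 14 weeks, B2m, Psmb8, Psmb9 and Psmb10 for 26 against 14 weeks, and B2m and Psmb9 (higher) with Tapbp and H2-D1 (lower) for 26 against 20 weeks.

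B2m encodes beta-2 microglobulin, the light chain that every classical class I molecule needs to reach the cell surface. Its lowest, median and highest levels were 1232, 1465 and 1648 CPM at 14 weeks, 1233, 2045 and 2191 CPM at 20 weeks, and 1275, 3745 and 4486 CPM at 26 weeks. At 26 weeks 5 of 6 mice were above every younger mouse, and replicate 4, at 1275 CPM, lay within the range of 14 weeks. That library also had the lowest ribosomal protein sum of its age (1095 CPM), and replicate 5, the highest for B2m, had the highest (3782 CPM) and the lowest total count (5546624). B2m averaged 3390 ± 1185 CPM at 26 weeks and 1452 ± 156 CPM at 14 weeks (SD, n = 6 each), a log2 change of 1.22 ± 0.22 (SE, adjusted p = 0.00253). Against 20 weeks, at 1853 ± 387 CPM, the change was 0.87 ± 0.22 (adjusted p = 0.0105). From 14 to 20 weeks it was 0.35 ± 0.22 (adjusted p = 0.374). Without replicate 4 of 26 weeks the changes were 1.39 against 14 weeks and 1.04 against 20 weeks. With the length correction they were 0.59 (adjusted p = 0.145) and 0.13 (adjusted p = 0.742), and neither was called.

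H2-D1 and H2-K1 encode the heavy chains H2-D and H2-K, which hold the peptide. H2-D1 had 3481, 5201 and 5919 CPM (lowest, median and highest) at 14 weeks, 6135, 6751 and 8099 CPM at 20 weeks, and 3922, 4873 and 6311 CPM at 26 weeks. Every mouse of 20 weeks was above every mouse of 14 weeks, a separation upward found for 2.97% of all genes tested. H2-D1 averaged 6930 ± 692 CPM at 20 weeks and 4919 ± 885 CPM at 14 weeks, a log2 change of 0.49 ± 0.14 (adjusted p = 0.0297). It averaged 4966 ± 933 CPM at 26 weeks, a change of -0.48 ± 0.14 against 20 weeks (adjusted p = 0.0241) and of 0.01 ± 0.14 against 14 weeks (adjusted p = 0.973). The call against 14 weeks was lost without replicate 3, 4 or 6 of 14 weeks or replicate 4 or 6 of 20 weeks (adjusted p = 0.0506, 0.0797, 0.0733, 0.0777 and 0.0618). The call of 26 against 20 weeks was lost without replicate 4 of 20 weeks or replicate 1 or 5 of 26 weeks (0.0603, 0.0525 and 0.0598).

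H2-K1 was lower than H2-D1 per kilobase in every library and was called in none of the comparisons. Its levels were 681, 1094 and 1357 CPM at 14 weeks, 1163, 1360 and 1460 CPM at 20 weeks, and 731, 1255 and 1376 CPM at 26 weeks, and the ranges of the 3 ages overlapped. All 6 mice of 20 weeks were above the median of 14 weeks. The log2 changes were 0.36 ± 0.16 for 20 against 14 weeks (adjusted p = 0.192, 95% interval 0.04 to 0.67), 0.15 ± 0.16 for 26 against 14 weeks (adjusted p = 0.67) and -0.21 ± 0.16 for 26 against 20 weeks (adjusted p = 0.444). The heavy chain genes are near-identical copies of each other and of other class I genes, and the NZB and NZW strains carry other alleles of them than the reference genome. No source used here says how reads that fit several copies were counted, so their levels are less certain than those of the other genes, and the size of that error was not tested.

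The likeness of the heavy chain genes extends to their promoters, shown here beside that of B2m, whose product pairs with theirs. Whether these sequences bear on the course of the genes with age was not tested. The sequences are from RefSeq on GRCm38.p6, read 5′ to 3′ on the strand of the gene, ahead of its RefSeq start, up to the start itself except for H2-D1, whose stretch ends short of it so that it lines up with H2-K1: H2-K1 at chr17:34000348-34000497 (minus strand), H2-D1 at chr17:35262894-35263043 (plus strand) and B2m at chr2:122147487-122147686 (plus strand). Capitals mark GGGNNTTCC, a form of the kappa B element that NF-kappa B proteins bind, and AANNGAAA, the core that interferon regulatory factors bind, each searched on both strands.
H2-K1: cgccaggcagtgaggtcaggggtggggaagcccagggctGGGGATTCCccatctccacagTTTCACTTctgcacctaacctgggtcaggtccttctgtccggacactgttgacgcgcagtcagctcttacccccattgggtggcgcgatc
H2-D1: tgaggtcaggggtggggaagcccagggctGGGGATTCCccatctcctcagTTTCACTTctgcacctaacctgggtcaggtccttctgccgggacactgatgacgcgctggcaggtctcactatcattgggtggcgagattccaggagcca
B2m: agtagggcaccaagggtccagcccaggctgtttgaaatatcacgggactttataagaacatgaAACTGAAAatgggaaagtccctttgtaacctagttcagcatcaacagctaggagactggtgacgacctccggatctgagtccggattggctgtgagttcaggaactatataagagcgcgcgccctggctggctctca
From the kappa B match on, 98 of 111 bases (88.3%) were the same in H2-K1 and H2-D1. In both, the kappa B match came first and the interferon regulatory factor match, on the other strand, followed it. In H2-K1 the kappa B match began 111 bases before the RefSeq start, and in H2-D1 171 bases before it. B2m held only the interferon regulatory factor match, 137 bases before its start. In the 250 bases before the start, GGGNNTTCC was found in 4.98% and AANNGAAA in 21.3% of the 32851 promoters of the table. RefSeq promoters were found for 9 of the 10 genes, all but Tap2. Of those, 4 held a match, counting Psmb8 with TTCNNNGAA, the gamma-activated sequence, which 7.02% of promoters hold. The matches describe letters and not bound sites. GENCODE M21 places the start of H2-D1 farther upstream than RefSeq does, so that the H2-D1 stretch lies inside the GENCODE gene.

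Within a library, the count of a heavy chain gene over that of the light chain gene does not depend on the scaling of the library. The H2-D1 count was 2.83, 3.44 and 3.65 times the B2m count (lowest, median and highest) in 14-week mice, 2.94, 3.60 and 5.63 times at 20 weeks, and 0.905, 1.42 and 3.08 times at 26 weeks. The highest of these at 26 weeks is replicate 4, and without it every mouse of 26 weeks was below every younger mouse. The H2-K1 count was 0.553, 0.715 and 0.858 times the B2m count at 14 weeks, 0.558, 0.688 and 1.10 times at 20 weeks, and 0.220, 0.358 and 0.574 times at 26 weeks, again highest in replicate 4. The log2 ratio of H2-D1 to B2m was lower at 26 weeks by a difference of -1.11 against 14 weeks and -1.29 against 20 weeks, and that of H2-K1 to B2m by -0.97 and -1.03. Each of these 4 had p = 0.00433 in an exact permutation test (two-sided, 6 against 6 mice, smallest possible p 0.00216) and adjusted p = 0.0195 over the 18 ratios and pairs of ages tested. Neither ratio differed from 14 to 20 weeks by more than the spread between mice (adjusted exact p = 0.919 for H2-K1 and 0.381 for H2-D1). B2m has 0.86 kb of exon, against 2.94 kb for H2-K1 and 2.58 kb for H2-D1, and short genes as a class were higher at 26 weeks. With the length correction described below, the fitted change of H2-D1 minus that of B2m was -0.88 for 26 against 14 weeks and -1.07 for 26 against 20 weeks, against -1.21 and -1.35 without it. That of H2-K1 minus that of B2m was -0.68 and -0.76, against -1.07 and -1.08 without it. These differences of fitted values have no test.

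**Figure D3:**
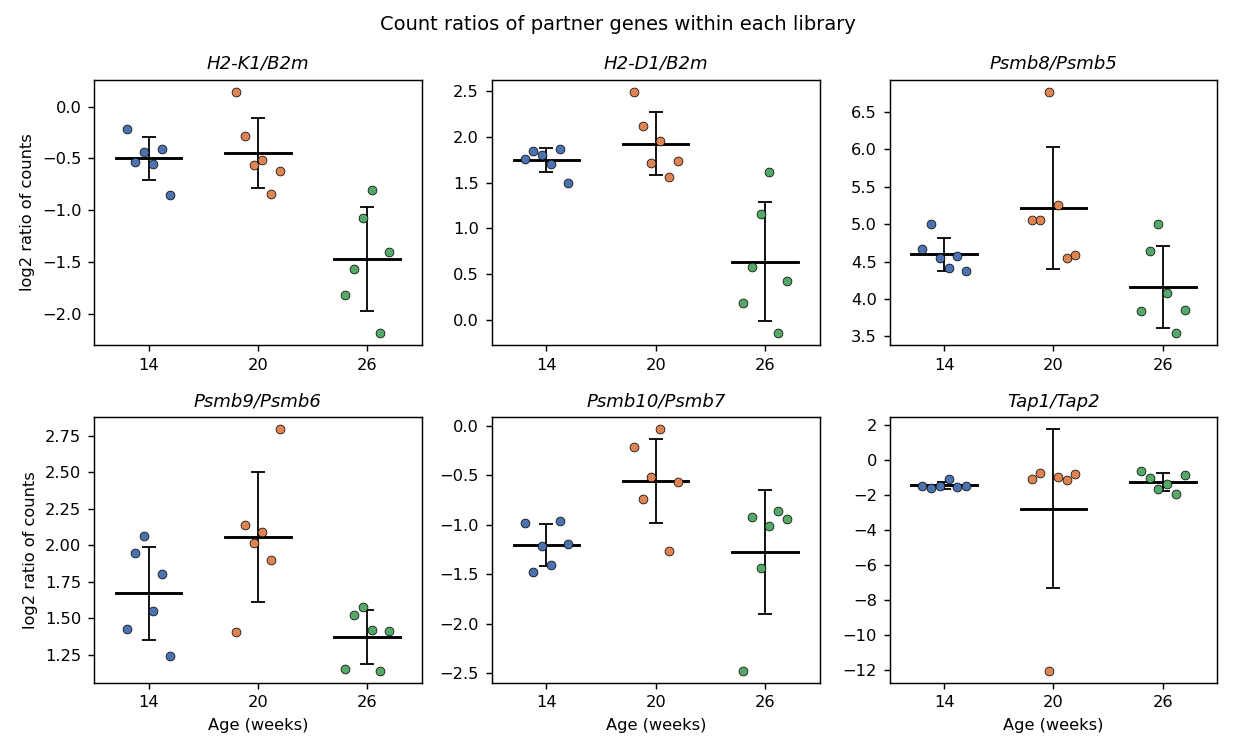
Log2 ratios of the counts of 2 genes in the same library (0.5 added to each count), on the vertical axes, at 14, 20 and 26 weeks on the horizontal axes. Points are mice, lines means and bars SD (n = 6 per age). Both heavy chain to B2m ratios sit lower at 26 weeks, the 3 ratios of inducible to constitutive proteasome subunits have their highest means at 20 weeks, and Tap1/Tap2 is set by 1 library with 0 counts of Tap1.

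Psmb8, Psmb9 and Psmb10 encode the catalytic subunits of the immunoproteasome, which cuts proteins into peptides with ends that suit class I molecules. Psmb8 had 132, 152 and 195 CPM (lowest, median and highest) at 14 weeks, 189, 259.9 and 287 CPM at 20 weeks, and 132, 261 and 307 CPM at 26 weeks. In both older groups 5 of 6 mice were above the highest mouse of 14 weeks, and the lowest mouse of 26 weeks was again replicate 4. Psmb8 averaged 252 ± 34.4 CPM at 20 weeks and 158 ± 23.2 CPM at 14 weeks, a log2 change of 0.67 ± 0.17 (adjusted p = 0.0162). It averaged 248 ± 64.7 CPM at 26 weeks, a change of 0.65 ± 0.17 against 14 weeks (adjusted p = 0.0198) and of -0.02 ± 0.17 against 20 weeks (adjusted p = 0.947). The call of 26 against 14 weeks was lost without replicate 4 of 14 weeks (adjusted p = 0.0536).

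Psmb9 was higher at 26 weeks than at either younger age. Its levels were 109, 116 and 134 CPM at 14 weeks, 96.0, 142 and 193 CPM at 20 weeks, and 120.4, 218 and 269.8 CPM at 26 weeks, with replicate 4 lowest. It averaged 205 ± 52.3 CPM at 26 weeks and 119 ± 9.15 CPM at 14 weeks, a log2 change of 0.79 ± 0.18 (adjusted p = 0.00956). Against 20 weeks, at 139 ± 34.5 CPM, the change was 0.56 ± 0.18 (adjusted p = 0.0395). That second call did not hold without any 1 of 7 libraries, namely replicates 2, 3 and 4 of 20 weeks (0.09, 0.0733 and 0.071) and replicates 1, 2, 5 and 6 of 26 weeks (0.103, 0.0685, 0.0843 and 0.0764). Neither was called with the length correction (0.70, adjusted p = 0.0768, and 0.32, adjusted p = 0.367). The change from 14 to 20 weeks was 0.22 ± 0.18 (adjusted p = 0.527).

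Psmb10 was the least abundant of the 3, with 12.5, 15.8 and 21.7 CPM at 14 weeks, 12.3, 22.6 and 26.5 CPM at 20 weeks, and 19.3, 31.0 and 41.7 CPM at 26 weeks. The mice of 26 weeks lay at 39.7 to 41.7 CPM in 3 cases and at 19.3 to 22.3 CPM in the other 3. Psmb10 averaged 30.5 ± 10.9 CPM at 26 weeks and 16.4 ± 3.14 CPM at 14 weeks, a log2 change of 0.89 ± 0.27 (adjusted p = 0.0401). The call was lost without any of replicates 2 to 6 of 14 weeks (0.0584 to 0.0869) or replicates 2, 5 and 6 of 26 weeks (0.0928, 0.0924 and 0.0914). The other changes were 0.38 ± 0.27 for 20 against 14 weeks (adjusted p = 0.447) and 0.51 ± 0.27 for 26 against 20 weeks (adjusted p = 0.229).

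Of the constitutive subunits that the inducible ones replace, Psmb6 and Psmb7 also rose at 26 weeks. Psmb6 averaged 81.4 CPM at 26 weeks, against 38.4 CPM at 14 weeks and 34.2 CPM at 20 weeks, log2 changes of 1.08 ± 0.27 (adjusted p = 0.0134) and 1.25 ± 0.27 (adjusted p = 0.00353). Psmb7 averaged 73.0 CPM at 26 weeks, against 37.8 and 31.5 CPM, changes of 0.95 ± 0.22 (adjusted p = 0.0101) and 1.21 ± 0.22 (adjusted p = 0.00126). Psmb5, at 14.3 CPM at 26 weeks, against 6.46 CPM at 14 weeks and 7.47 CPM at 20 weeks, was not called (1.15 ± 0.40, adjusted p = 0.0685, and 0.94 ± 0.39, adjusted p = 0.114). Counting all 14 genes of the proteasome core other than the inducible ones, 13 were higher at 26 than at 14 weeks (median log2 change 0.93), 10 were higher at 26 than at 20 weeks (0.93) and 0 were called for 20 against 14 weeks by edgeR (0.01), where 1 was higher and 1 lower at an unadjusted p under 0.05 and DESeq2 and limma-voom also called 0. Of all genes tested, 5.45% were called higher at 26 than at 14 weeks and 8.03% at 26 than at 20 weeks. With the length correction, 0 of the 14 were called for 26 against 14 weeks, with 10 higher at an unadjusted p under 0.05, and 3 were higher at 26 than at 20 weeks. Of the activator PA28, whose genes Psme1 and Psme2 interferon gamma induces in many cells, Psme2 was higher at 26 weeks against 14 weeks (0.93 ± 0.21, adjusted p = 0.00763) and against 20 weeks (1.07 ± 0.21, adjusted p = 0.00184). Psme1 was higher at 26 weeks against 20 weeks (0.88 ± 0.22, adjusted p = 0.00846). Psme3, also listed with PA28, was not called for 20 against 14, 26 against 14 or 26 against 20 weeks (-0.41, -0.17 and 0.24, edgeR adjusted p = 0.29, 0.734 and 0.534). With the length correction the changes of 26 against 14 weeks were 0.62 for Psmb6 (adjusted p = 0.18), 0.83 for Psmb7 (0.122) and 0.44 for Psme2 (0.349), and those of 26 against 20 weeks were 0.86 for Psmb7 (0.0534), 0.47 for Psme2 (0.191) and 0.31 for Psme1 (0.513), none of which was called. Of the other core genes, Psmb2, Psma4, Psma2 and Psma3 had the smallest p for 26 against 14 weeks (1.18, 1.11, 0.83 and 0.90) and were no longer called with it (adjusted p = 0.0743 to 0.0992).

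**Figure D4:**
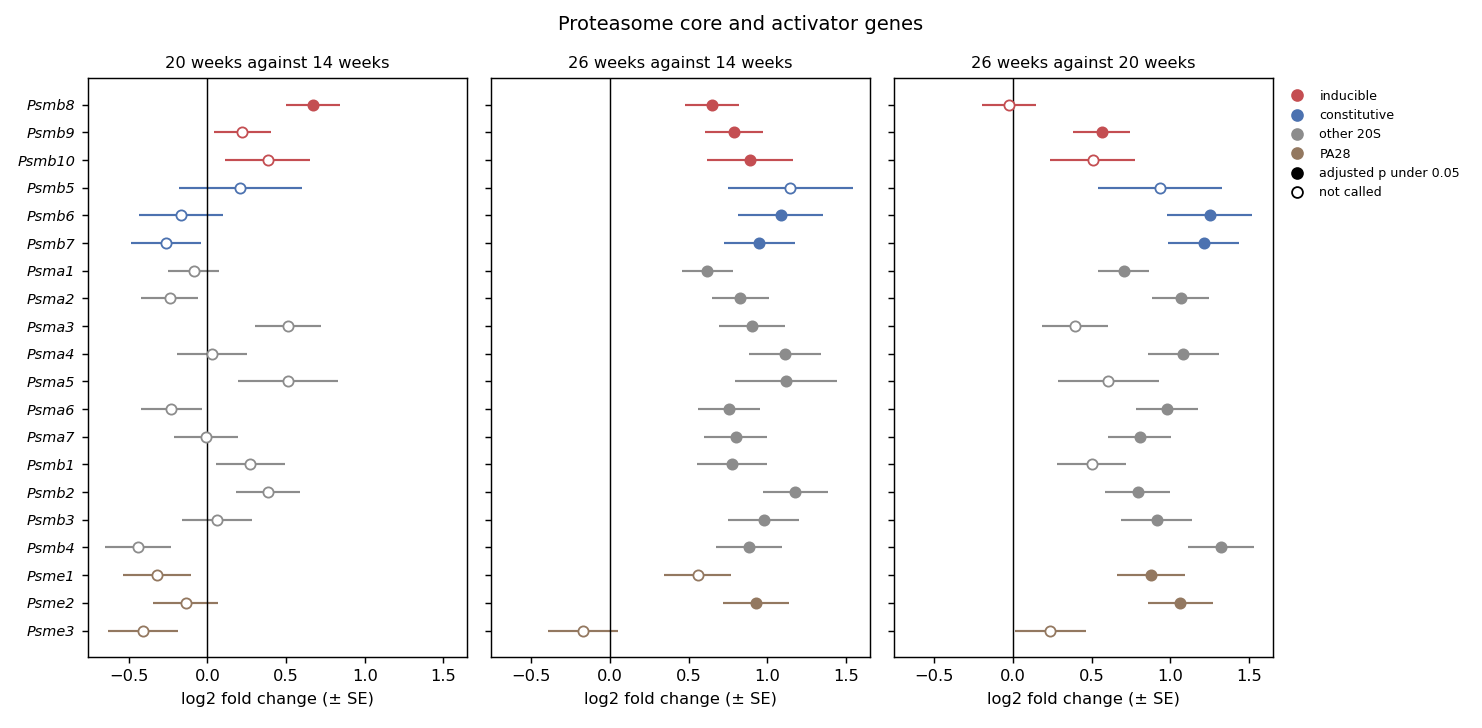
Log2 fold changes with SE (edgeR) of the inducible subunits Psmb8, Psmb9 and Psmb10, the constitutive subunits they replace, the other genes of the proteasome core and the PA28 activator, with 1 panel per comparison and 1 row per gene. Filled points have an adjusted p under 0.05. In 20 against 14 weeks Psmb8 is the only filled point, while in 26 against 14 weeks 13 of the 14 core genes other than the inducible ones are filled, of which 0 remain called with the length correction. Of all genes tested, 5.45% were called higher at 26 than at 14 weeks.

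As counts within a library, Psmb8 was 20.9 to 32.2 times Psmb5 at 14 weeks (median 23.8), 23.5 to 111 times at 20 weeks (33.5) and 11.7 to 32.2 times at 26 weeks (15.8). The value of 111 is replicate 3 of 20 weeks, the library that stood apart. Psmb9 was 2.36 to 4.18 times Psmb6 at 14 weeks (median 3.21), 2.65 to 6.95 times at 20 weeks (4.16) and 2.20 to 2.99 times at 26 weeks (2.66). Psmb10 was 0.357 to 0.511 times Psmb7 at 14 weeks (0.432), 0.416 to 0.976 times at 20 weeks (0.685) and 0.179 to 0.548 times at 26 weeks (0.509). All 3 ratios thus had their highest median at 20 weeks. Of the 9 comparisons, 2 passed the exact permutation test (two-sided): the log2 ratio of Psmb9 to Psmb6 was lower at 26 than at 20 weeks, by a difference of -0.69 (lower in 6 of 6 mice than the median of 20 weeks, adjusted p = 0.039), and that of Psmb10 to Psmb7 was higher at 20 than at 14 weeks, by 0.65 (higher in 5 of 6 mice, adjusted p = 0.039). The second was lost without any of 6 libraries (adjusted p = 0.0557 to 0.0714): replicates 2, 3, 4 and 6 of 14 weeks and replicates 1 and 4 of 20 weeks. The ratio of Psmb8 to Psmb5 missed the threshold at 20 against 14 weeks (0.62, adjusted p = 0.0952) and at 26 against 20 weeks (-1.05, adjusted p = 0.0557). It passed at 20 against 14 weeks without replicate 5 of 20 weeks (0.75, adjusted p = 0.039), at 26 against 20 weeks without replicate 5 or 6 of 20 weeks or replicate 3 of 26 weeks (-1.18, -1.17 and -1.22, adjusted p = 0.0341, 0.0445 and 0.0334), and at 26 against 14 weeks without replicate 3 of 26 weeks (-0.60, adjusted p = 0.0438, against -0.43 and 0.162 with it). That of Psmb10 to Psmb7 at 26 against 20 weeks (-0.72, adjusted p = 0.0633) passed without replicate 5 of 20 weeks (-0.86, adjusted p = 0.013). These ratios carry no correction for gene length. For 26 against 14 weeks, that correction took the fitted changes of Psmb9 and Psmb6 from 0.79 and 1.08 to 0.70 and 0.62. It took those of Psmb10 and Psmb7 from 0.89 and 0.95 to 0.40 and 0.83. Its effect on the ratios was not tested.

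Tapbp encodes tapasin, which holds the empty heavy chain beside the peptide transporter and favours peptides that bind well. It had the smallest adjusted p of the 10 genes for any change, and its highest mean at 20 weeks. Its levels were 290, 395 and 499.6 CPM (lowest, median and highest) at 14 weeks, 483, 650.2 and 1044 CPM at 20 weeks, and 260.3, 333 and 443 CPM at 26 weeks. Every mouse of 26 weeks was below every mouse of 20 weeks, a separation downward found for 2.27% of all genes tested. Tapbp averaged 693 ± 189 CPM at 20 weeks and 409 ± 78.2 CPM at 14 weeks, a log2 change of 0.76 ± 0.18 (adjusted p = 0.00958). It averaged 335 ± 67.9 CPM at 26 weeks, a change of -1.05 ± 0.18 against 20 weeks (adjusted p = 0.000798) and of -0.29 ± 0.18 against 14 weeks (adjusted p = 0.377). The highest value was in replicate 3 of 20 weeks, and without that library the changes were 0.61 (adjusted p = 0.0222) for 20 against 14 weeks and -0.89 (adjusted p = 0.0016) for 26 against 20 weeks. Both calls held in every fit run. The monocyte and macrophage genes Csf1r and Cd68 and the B cell gene Ighm also had their highest means at 20 weeks, as did H2-D1. Ly6c2, of the same monocyte and macrophage list, went the other way, with means of 533, 169 and 863 CPM at 14, 20 and 26 weeks. The part of other cells in the changes of Tapbp and H2-D1 was not tested.

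Tap1 and Tap2 encode the subunits of the transporter that brings peptides into the endoplasmic reticulum. Tap1 had 56.1, 61.6 and 78.8 CPM at 14 weeks and 23.3, 58.7 and 77.7 CPM at 26 weeks. At 20 weeks replicate 3 had 0 counts, which allows up to 3 counts, and the other 5 mice had 74.4 to 107 CPM. With all libraries, the log2 changes of Tap1 were 0.27 ± 0.62 for 20 against 14 weeks (adjusted p = 0.857), -0.14 ± 0.62 for 26 against 14 weeks (adjusted p = 0.935) and -0.41 ± 0.62 for 26 against 20 weeks (adjusted p = 0.72). Without replicate 3 of 20 weeks, the change of 26 against 20 weeks was -0.67 (adjusted p = 0.0435, called) and that of 20 against 14 weeks 0.53 (adjusted p = 0.136). The Tap1 count was 0.331, 0.360 and 0.471 times that of Tap2 (lowest, median and highest) at 14 weeks, 0.461 to 0.604 times in the 5 other mice of 20 weeks and 0.256, 0.439 and 0.662 times at 26 weeks. The log2 ratio of Tap1 to Tap2 did not pass with all libraries (20 against 14 weeks -1.34, adjusted exact p = 0.998, and 26 against 20 weeks 1.54, 0.963). Without that library it was 0.51 higher at 20 than at 14 weeks (higher in 5 of 5 mice, adjusted exact p = 0.0234), the opposite direction.

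Tap2 had 123, 178 and 221 CPM at 14 weeks, 144, 184 and 231 CPM at 20 weeks, and 83.5, 142 and 187 CPM at 26 weeks. Its ranges overlapped at all ages, with 5 of 6 mice of 26 weeks below the median of each younger group. The log2 changes were 0.05 ± 0.20 for 20 against 14 weeks (adjusted p = 0.922), -0.39 ± 0.20 for 26 against 14 weeks (adjusted p = 0.242) and -0.44 ± 0.20 for 26 against 20 weeks (adjusted p = 0.14, 95% interval -0.83 to -0.05). With the length correction the last was -0.81 and was called (adjusted p = 0.0191). That correction also moved the median of all genes tested for 26 against 20 weeks from 0.05 to -0.31.

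Tap1 and Psmb9 lie head to head in the class II region of chromosome 17 and share the stretch between their RefSeq starts, which is shown here. It covers 225 bases of GRCm38.p6 at chr17:34187331-34187555 and is written on the plus strand, the strand of Tap1, from the start of Psmb9 to that of Tap1. It lies within the GENCODE M21 span of Psmb9, which begins farther out than the RefSeq one.
Tap1 and Psmb9: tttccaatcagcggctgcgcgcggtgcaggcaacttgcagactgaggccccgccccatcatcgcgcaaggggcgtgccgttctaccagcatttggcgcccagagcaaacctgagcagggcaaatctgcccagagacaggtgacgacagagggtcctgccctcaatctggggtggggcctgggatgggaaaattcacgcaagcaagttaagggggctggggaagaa
None of the 3 motifs was found in it, so it has no capitals. At 26 weeks Psmb9 was higher than at 14 weeks (0.79 ± 0.18), and Tap1 changed by -0.14 ± 0.62, with 4 of 6 mice below the median of 14 weeks. The 95% interval of the Tap1 change, -1.35 to 1.07, includes the change of Psmb9, and the difference between these genes was not tested.

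Erap1 encodes the aminopeptidase that trims peptides inside the endoplasmic reticulum. It had the fewest counts, 0 to 268 per library. Its levels were 2.82, 5.53 and 13.8 CPM at 14 weeks, 0, 8.59 and 18 CPM at 20 weeks, and 1.05, 11.8 and 15.2 CPM at 26 weeks, and all ranges overlapped. The library at 0 was replicate 6 of 20 weeks. The log2 changes were 0.39 ± 0.79, 0.56 ± 0.79 and 0.17 ± 0.79 for 20 against 14, 26 against 14 and 26 against 20 weeks (adjusted p = 0.841, 0.759 and 0.919), the largest SE of the 10 genes.

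The genes lie on 4 chromosomes of GRCm38, with 7 of the 10 on chromosome 17. By GENCODE M21, H2-K1 spans chr17:33996017-34000347, Tapbp chr17:33915899-33929292, Psmb9 chr17:34181987-34187764, Tap1 chr17:34187553-34197225, Psmb8 chr17:34197721-34201454, Tap2 chr17:34203527-34216321 and H2-D1 chr17:35262730-35267499. B2m spans chr2:122147686-122153083, Psmb10 chr8:105935735-105938444 and Erap1 chr13:74639568-74693201. Several overlap other genes, and no source used here gives the strand setting of the authors' counting, so reads of both strands cannot be told apart. Antisense Gm20496 (23161 counts in all) covers 14.7% of the exon bases of Psmb8 and 4.36% of those of Tap2, Gm15821 (10450 counts) 14.1% of those of Tap2, and Gm19412 (12319 counts) 24.9% of those of Tapbp. Cast, a far more abundant neighbour of Erap1 with 23302 counts against 1684, covers 11.5% of the exon bases of Erap1. Psmb9 and Tap1 share 212 exon bases.

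Gene length moved with age in these libraries. When the 9653 tested genes with a known length were split into 4 equal classes, the class with at most 2522 bases of exon had a median log2 change of 0.48 for 26 against 14 weeks, while the class with at least 6590 bases had -0.21. For 26 against 20 weeks the medians were 0.37 and -0.03, and for 20 against 14 weeks 0.07 and -0.19. B2m and Psmb10 are in the shortest class and Erap1 in the longest. With a curve of expression on length fitted in each library and taken out, the changes of 26 against 14 weeks were 0.59 for B2m (adjusted p = 0.145), 0.70 for Psmb9 (0.0768), 0.51 for Psmb8 (0.257) and 0.40 for Psmb10 (0.579), so 0 of the 10 genes were called by edgeR, with 3 higher and 1 lower at an unadjusted p under 0.05. The same correction gave 567 calls over all genes, 27.9% of them higher, against 1111 and 49.6% without it. For 26 against 20 weeks, B2m and Psmb9 were no longer called, while Tapbp and H2-D1 stayed lower and Tap2 joined them, which made 3 calls, and in the test of any change B2m (0.14) and Psmb9 (0.0791) were lost and Tap2 (0.0429) was gained. There, 18.8% of all calls for 26 against 20 weeks were higher, against 50.2%. For 20 against 14 weeks the same 3 genes were called, with 76.1% of all calls higher, against 48.3%. The correction moved the median of all genes to 0.22 for 20 against 14 weeks, -0.07 for 26 against 14 weeks and -0.31 for 26 against 20 weeks, against -0.02, 0.04 and 0.05 without it. A change in RNA quality or in composition that favours short transcripts and a change in the cells cannot be told apart from these files.

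**Figure D5:**
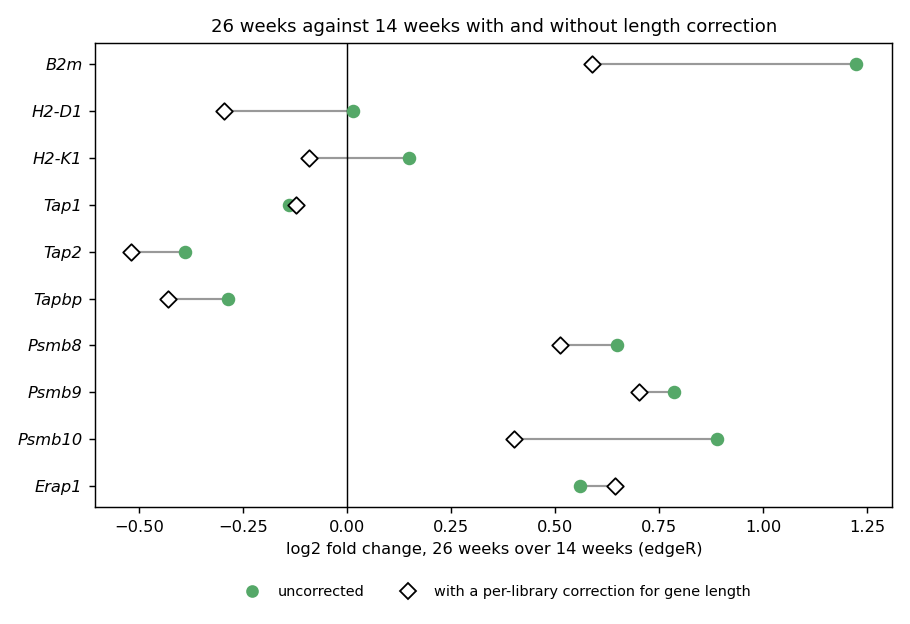
Log2 fold changes of 26 against 14 weeks (edgeR) on the horizontal axis, 1 row per gene, as fitted (circles) and with a per-library correction for gene length (diamonds). B2m lies at 1.22 as fitted and at 0.59 with the correction, and Psmb10 at 0.89 and 0.40, while Psmb9 lies at 0.79 and 0.70.

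Of the 16 regulators of class I genes tested (17 listed), 2 were higher at 20 than at 14 weeks, beside 4.93% of all genes, 0 were called for 26 against 14 weeks by edgeR (1 lower at an unadjusted p under 0.05, 1 lower by DESeq2, 1 higher and 2 lower by limma-voom), and 4 were lower at 26 than at 20 weeks, beside 7.98% of all genes. Irf1, an interferon-induced factor that binds class I promoters, averaged 354 ± 104 CPM at 20 weeks and 206 ± 30.2 CPM at 14 weeks, a log2 change of 0.78 ± 0.22 (adjusted p = 0.0297). That call was lost without replicates 1, 4, 5 or 6 of 14 weeks or replicates 4 or 6 of 20 weeks (0.0538 to 0.0764). Rela, the p65 subunit of NF-kappa B, averaged 117 ± 28.8 CPM at 26 weeks and 203 ± 49.1 CPM at 20 weeks, a change of -0.79 ± 0.19 (adjusted p = 0.0072). Nlrc5, the transactivator of class I genes, had means of 1.14 to 2.59 CPM and was not called in any comparison (adjusted p = 0.654 to 0.988). The other called regulators were Atf1 (0.68 at 20 against 14 weeks) and Irf9, Irf2 and Atf1 (-0.54, -0.59 and -0.59 at 26 against 20 weeks), each lost in at least 1 fit that left out a library (adjusted p up to 0.111).

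Of 8 genes of interferon signalling (receptor chains, kinases and Socs1), 1 was higher at 20 than at 14 weeks. At 26 weeks 3 were lower than at 14 weeks and 5 lower than at 20 weeks. The shares of all genes tested in these 3 classes were 4.93%, 5.54% and 7.98%. Ifngr1, a chain of the interferon gamma receptor, averaged 317 ± 82.5 CPM at 20 weeks and 150 ± 31.2 CPM at 14 weeks (1.08 ± 0.22, adjusted p = 0.00375), and 159 ± 50.01 CPM at 26 weeks (-0.99 ± 0.22 against 20 weeks, adjusted p = 0.00421). Its range at 20 weeks lay above that of 14 weeks, a separation upward found for 2.97% of all genes tested. The kinase gene Jak1 averaged 362 ± 63.8 CPM at 26 weeks and 637 ± 52.3 CPM at 14 weeks (-0.81 ± 0.13, adjusted p = 0.00149), with every mouse of 26 weeks below every mouse of 14 weeks. Such a separation downward from 14 to 26 weeks was found for 3.86% of all genes tested. Jak2 was lower at 26 weeks than at either younger age (-1.24 ± 0.31 and -1.41 ± 0.31, adjusted p = 0.0143 and 0.00435). Ifngr2, the other chain of that receptor, was lower at 26 weeks by the same pair of comparisons (-0.41 ± 0.12 and -0.57 ± 0.12, adjusted p = 0.0281 and 0.00274), the first lost in 7 fits that left out 1 library (up to 0.104) and with the length correction (0.155).

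Of 14 tested class I and class I-like chain genes other than the members, 1 was higher at 20 than at 14 weeks and 1 at 26 than at 14 weeks. At 26 weeks 2 were higher and 1 lower than at 20 weeks. The shares of all genes tested in these classes were 4.93%, 5.45%, 8.03% and 7.98%, in that order. H2-Q10, a heavy chain gene known in liver for a secreted product, averaged 387 ± 62.7 CPM at 20 weeks, above every mouse of 14 weeks (177 ± 60.1 CPM, 1.13 ± 0.23, adjusted p = 0.00424), and 214 ± 80.9 CPM at 26 weeks (-0.85 ± 0.23 against 20 weeks, adjusted p = 0.0161). A range at 20 weeks wholly above that of 14 weeks was found for 2.97% of all genes tested. H2-Q10 is one of the near-identical copies named above. H2-Q7 (6.58 CPM at 26 weeks, against 1.72 CPM at 20 weeks, 1.93 ± 0.55, adjusted p = 0.0191) was no longer called without replicate 6 of 26 weeks (0.0585), and H2-T10 (15.1 CPM at 26 weeks, against 7.40 CPM at 20 weeks, 1.03 ± 0.35, adjusted p = 0.0498) was lost in 15 fits that left out 1 library (up to 0.109). Hfe had 158 counts in all at 26 weeks, 41 at 20 weeks and 0 at 14 weeks. It was near the detection floor, at 2.21 ± 1.66 CPM at 26 weeks (log2 change against 14 weeks called by edgeR, adjusted p = 0.023). Only 5 of 6 mice of 26 weeks were above the median of 14 weeks, and the ranges overlapped. Pooled over libraries, 26 weeks was at least 59.5-fold higher when 3 counts over the 6 libraries of 14 weeks are taken as the floor.

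Of 9 partners in folding and loading, the chaperone gene Hspa5 was highest at 20 weeks, with 423 ± 86.4 CPM at 20 weeks and 226 ± 33.3 CPM at 14 weeks (0.91 ± 0.22, adjusted p = 0.0127), and 223 ± 99.0 CPM at 26 weeks (-0.93 ± 0.22 against 20 weeks, adjusted p = 0.00767). Uggt1, whose product checks the fold of glycoproteins, was lower at 20 than at 14 weeks (-0.91 ± 0.26, adjusted p = 0.0318), a call lost in 5 fits that left out 1 library (up to 0.0799) and with the length correction (-0.24, adjusted p = 0.732), and the export receptor gene Bcap31 was higher at 26 than at 14 weeks (0.70 ± 0.15, adjusted p = 0.00531), which the length correction took to 0.15 (adjusted p = 0.795). Of 5 other peptidases tested, which trim or destroy antigenic peptides, Npepps (-0.88 ± 0.20, adjusted p = 0.00829) and Tpp2 (-1.03 ± 0.26, adjusted p = 0.0131) were lower at 20 than at 14 weeks. For both, every mouse of 20 weeks was below every mouse of 14 weeks. Of all genes tested, 5.27% were called lower at 20 than at 14 weeks, and 3.93% had a range wholly below that of 14 weeks. With the length correction the changes of Npepps and Tpp2 were -0.42 and -0.49 (adjusted p = 0.344 and 0.307). Tpp2 was also lower at 26 than at 14 weeks (-0.88 ± 0.26, adjusted p = 0.0316), lost in 8 fits that left out 1 library (up to 0.0908). Of 5 tested receptors that bind class I on myeloid cells, Pirb (-0.71 ± 0.17, adjusted p = 0.0116) and Pira2 (-1.36 ± 0.34, adjusted p = 0.0134) were lower at 26 than at 14 weeks, with ranges that did not overlap. Of all genes tested, 5.54% were called lower there, and 3.86% had a range wholly below that of 14 weeks.

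Over the 18 libraries, H2-D1 and H2-K1 were the members most alike, with a root mean square difference of 0.17 in log2 CPM after each gene was centred on its mean. Among 4444 genes outside the list whose log2 CPM averaged 4 or more, 0 were nearer to H2-K1 than H2-D1 was, and 3 were nearer to H2-D1 than H2-K1 was, led by Pilra (0.14) and Gm8909 (0.15). B2m was nearest to Psmb9 among the members (0.33), but 37 other genes were nearer, led by Chchd2 (0.19) and Fcer1g (0.20). Psmb9 was most like Gpx1 (0.17) and Ssu72 (0.18), Tapbp most like Sf1 (0.22) and C5ar1 (0.23), and Psmb10 most like Sys1 (0.32) and Commd3 (0.33). The genes nearest to Psmb8 and Tap2 were Gm20496 (0.13) and Gm15821 (0.09), which overlap them on the other strand. The libraries share depth and composition, so these distances are descriptions.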

How the data were processed

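RNA of sorted splenic neutrophils was extracted (RNeasy Plus Micro) and Nextera XT libraries were built from 1 ng of cDNA, per the labels' protocols. The authors deposited raw counts of reads per gene symbol. Per the submitters' processing notes, the tools were HTSeq 0.6.1, STAR 2.4.2a, Trimmomatic 0.32, DESeq and DESeq2 1.12.3, with GRCm38.p4. No source used here gives the annotation or strand setting. Titles give 6 replicates per age, called biological replicates. The numbers do not pair mice across ages: same-numbered libraries had correlations of -0.05 to 0.14 in their deviations, over 0.1 in 1 of 18 pairs.

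Testing used edgeR 4.0.16 (R 4.3.3, TMM, filterByExpr by age, robust quasi-likelihood F tests, all 18 libraries, age as the only term), with Benjamini-Hochberg adjustment over 10104 genes and a threshold of 0.05. SE is the fold change over the square root of F. Ratios used exact permutation tests over 924 arrangements. Exon lengths and positions are from GENCODE M21 and promoters from RefSeq. The alternatives were RLE and upper quartile scaling, DESeq2 1.42.0, limma-voom (limma 3.58.1), no filter or 10 CPM in 6 libraries, replicate block, length correction, 184 genes of other cells left out, only the ages compared, each library left out in turn, a constant of 5 in ratios, and mean log2 CPM for marker lists. The limma-voom fit also weighted each library by its estimated quality. The edgeR fit was tested on simulated data. The members, lists and tests were chosen with earlier results of these data known. Named were all members, up to 4 called genes of each list and comparison by smallest p, or up to 2 where none was called, Psmb5, Psmb6, Psmb7, Nlrc5 and Irf1, up to 3 markers per list by counts, and the 2 genes most like each member. The text gives a part of these, and the marker genes given as at 0 were chosen after their values were seen. Some items are not reported here. Replicates differed by more than counting error (mean chi-square per gene 27.8 to 199 over 45 pairs). Floors of 3 counts cover counting error only, since reads carry no molecular identifiers.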

Additional observations from a re-analysis of the deposited data

Results flagged for a closer look

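In 48 groups of 6 libraries (each member and each ratio at each age), 5 had a highest or lowest value far from the other 5 by Dixon's test, which chance gives in about 1 group in 20. Replicate 3 of 20 weeks accounts for 3 of them. It had 0 counts of Tap1, with the other mice of its age at 74.4 to 107 CPM, a log2 Tap1/Tap2 ratio of -12.03, with the others at -1.12 to -0.73, and a log2 Psmb8/Psmb5 ratio of 6.77, with the others at 4.55 to 5.26. Replicate 1 of 26 weeks had a log2 Psmb10/Psmb7 ratio of -2.48, with the others at -1.44 to -0.87. Replicate 4 of 14 weeks had a log2 Tap1/Tap2 ratio of -1.09, with the others at -1.60 to -1.45. What set these values apart was not tested.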

How the results depend on the processing

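Tapbp (20 against 14 and 26 against 20 weeks) and Psmb8 (20 against 14 weeks) were called in every alternative. The genes called for 20 against 14 weeks came to 1030, and to 1563 with DESeq2. For 26 against 14 weeks they came to 1111, to 567 with the length correction, to 1710 with only the ages compared and to 2679 with limma-voom, and the members called went to 0 with the length correction, from 4. Any change gave 2321 genes, and 4063 with limma-voom. Upper quartile scaling put 62.0% of the calls of 26 against 14 weeks higher, against 49.6%, and moved the median of all genes to 0.14 there. The 6 called ratios came to 5 to 9 without 1 library. With the replicate block by sign flips they came to 0, with a smallest adjusted p of 0.0938. That block has only 64 arrangements, so 6 ratios at its smallest possible p cannot pass an adjustment over 18 tests. The numbers also do not pair mice, so this count of 0 does not measure how firm the 6 calls are. Of the 9 lists of other and neutrophil cells, 5 had a summed CPM that did not overlap between some ages, and 3 by mean log2 CPM.

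The replicate block gave 962, 946, 1573 and 2081 calls for 20 against 14, 26 against 14, 26 against 20 weeks and any change. Among members it ended the call of Psmb10 (adjusted p = 0.0889), and among the other genes named those of Atf1 (0.0541 and 0.0791), H2-Q7 (0.054), H2-T10 (0.0738), Irf1 (0.0576), Irf9 (0.0622) and Uggt1 (0.0607). Without 1 library, the calls ran from 702 to 1263 (20 against 14 weeks), 652 to 1544 (26 against 14 weeks), 1141 to 1911 (26 against 20 weeks) and 1780 to 2682 (any change). Counts for 26 against 14 weeks fell most without replicates 1, 2 or 6 of 26 weeks (652, 733 and 726). The members called ran from 2 to 3, 2 to 4, 2 to 4 and 4 to 6, at 2 for 26 against 14 weeks without replicate 4 of 14 weeks and for 26 against 20 weeks without replicate 4 of 20 weeks or replicates 1 or 5 of 26 weeks, and the calls in the other lists from 30 to 38 (37 with all).

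Uncalled changes that turned sign were those of H2-D1 (-0.30) and H2-K1 (-0.092) for 26 against 14 weeks and of Psmb10 (-0.12) and Erap1 (-0.39) for 26 against 20 weeks with the length correction, of Erap1 for 20 against 14 weeks with limma-voom (-0.93), and of Psmb8 for 26 against 20 weeks (0.0023 with upper quartile scaling, 0.0073 with no filter, 0.024 with the stricter filter and 0.0055 with limma-voom). Without 1 library, the same held for H2-D1 (-0.071 to 0.085) and Tap1 (-0.21 to 0.043) for 26 against 14 weeks, Tap2 for 20 against 14 weeks (-0.036 to 0.12), Psmb8 (-0.10 to 0.10) and Erap1 (-0.094 to 0.52) for 26 against 20 weeks, and the log2 ratios Psmb10/Psmb7 for 26 against 14 weeks (-0.15 to 0.18), H2-K1/B2m for 20 against 14 weeks (-0.063 to 0.13) and Tap1/Tap2 for 20 against 14 (-1.75 to 0.51) and 26 against 20 weeks (-0.31 to 1.95). Psmb10 was called for any change in 6 alternatives other than leaving out a library (adjusted p = 0.0075 to 0.0481). Psmb9 for 26 against 20 weeks was lost with only the ages compared (0.104), and Psmb10 for 26 against 14 weeks with no filter (0.0728). Except where the length of a gene enters by construction, the cause of these changes was not tested. The SE was largest for Erap1 (0.79) and Tap1 (0.62) among the 10 genes, and Erap1 had at most 268 counts in a library.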
